A study of Mus musculus with 31 samples.

Results

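The genes described here encode the collagens, the laminins and a set of proteins that link or decorate them in the extracellular matrix. They were chosen by symbol: every Col gene with an alpha chain number, every Lama, Lamb and Lamc gene, and Sparc, Fn1, Nid1, Nid2, Hspg2, Dcn, Lum, Bgn, Fbln1, Fbn1, Postn and Tgfbi. The rule found 83 probes for 55 genes among the 25697 probes of the array. Of these, 44 probes for 37 genes had a detection p-value under 0.05 on 3 or more arrays and were tested, among 15291 probes that passed the same filter. The other 39 probes did not pass, and 32 of them were detected on no array. Among these 39 were another probe each of Col7a1, Col3a1 and Lamc3, detected on 0 arrays. Further probes of Fbln1 were detected on 1 and 0 arrays. The values of these genes below therefore rest on the single probe that passed. Fn1 and Fbn1 had no probe by symbol, Col6a3 and Lama5 gave no member, and Postn, Lamb1 and Col5a2 were measured but did not pass, so none of these has a value below. A member that passed did so through the tissues in which it was detected, so the 44 probes are not all members of the family.

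RNA was measured in 27 samples from 7 male mice aged 12 months, in 9 groups of 3. Thymus, spleen and lymph nodes from the inguinal (ILN) and mesenteric (MLN) sites were each taken from 3 wild-type C57BL/6 mice (WT) and from 3 mice homozygous for deletion of Git2 (GIT2KO, strain also labelled C57BL/6). Git2 encodes a scaffold protein that binds G protein-coupled receptor kinases. The ninth group held the parathymic lobes (PTL), which the labels call extra lymph nodes; it came from GIT2KO mice only, so these lobes had no WT counterpart, and 2 of its 3 mice also gave samples 1 and 2 of each GIT2KO tissue. All mice had been fasted before sacrifice. The deletion was genomic, not limited to a cell type, and each group of 3 came from 3 mice, while the same mice gave several tissues. Values are log2 signals after background correction and quantile normalization, and a difference of 1 is a 2-fold difference in corrected signal. Probes near 5 on this scale lay at the array's background. Calls are at an adjusted p under 0.05 (limma, Benjamini-Hochberg over all 15291 probes), and with 3 samples a group they rest on the spread pooled over the 9 groups.

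Collagen molecules are trimers of alpha chains. Fibrillar collagens (types I, III and V among these genes) form the fibres that give lymphoid organs tensile strength, and in lymph node and spleen they run through the reticular conduits that fibroblastic reticular cells ensheathe. Basement membranes are sheets in which a laminin network and a type IV collagen network are tied together by nidogens and by perlecan, the product of Hspg2, and they surround vessels, adipocytes and thymic epithelium. Small leucine-rich proteoglycans such as decorin (Dcn), lumican (Lum) and biglycan (Bgn) sit on the fibres, and SPARC binds collagen outside the cell.

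The 250 bases upstream of the annotated start are shown for Sparc and Col5a1, because these genes were called in the same direction in more than 1 GIT2KO tissue and because their windows differ in base composition. Of the 37 tested genes, 26 had a window in the RefSeq table (GRCm38.p6). The Sparc window lies at chr11:55420081-55420330 on the minus strand and the Col5a1 window at chr2:27886175-27886424 on the plus strand, both 5′ to 3′ with GGGCGG or its reverse complement CCGCCC in capitals.
Sparc: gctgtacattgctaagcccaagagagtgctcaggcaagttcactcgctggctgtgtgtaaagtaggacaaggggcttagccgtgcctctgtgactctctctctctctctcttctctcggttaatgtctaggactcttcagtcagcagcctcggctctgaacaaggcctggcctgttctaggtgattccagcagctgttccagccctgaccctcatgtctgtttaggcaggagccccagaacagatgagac
Col5a1: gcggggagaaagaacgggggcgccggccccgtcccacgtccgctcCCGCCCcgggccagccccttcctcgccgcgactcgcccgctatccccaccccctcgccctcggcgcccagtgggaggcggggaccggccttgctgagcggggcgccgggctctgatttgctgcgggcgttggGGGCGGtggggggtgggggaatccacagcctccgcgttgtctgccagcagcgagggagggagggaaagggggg
The Sparc window was 54% GC and held no match to any of the 3 motifs searched on both strands, namely the TATA box TATAAA, the box bound by NF-Y, read here as CCAAT, and the GC box GGGCGG. The Col5a1 window was 76.4% GC, against a median of 52.4% over all windows, with 2 matches in capitals. GGGCGG was present in 17 of 31 windows of the tested genes (54.8%) and in 32.7% of all 32851 windows, CCAAT in 35.5% and 33.8%, and TATAAA in 6.45% and 12.4%. These are matches of letters only. Col4a1 and Col4a2, which encode the chains of the most widespread type IV collagen, start 21 bases apart on opposite strands of chromosome 8 (11312826 on the minus strand and 11312805 on the plus strand), and Dcn with Lum and Col6a1 with Col6a2 are next to each other on chromosome 10.

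The labels were checked first. The 3 Git2 probes were lower in GIT2KO than in WT in all 4 tissues, with a highest adjusted p of 0.034 (limma). All 9 tested thymic epithelium markers were lower in PTL than in GIT2KO thymus (median difference −5.08), 8 of 8 B cell markers and 6 of 7 lymph node vessel markers were higher. Of these 9 epithelial markers 6 were not detected in PTL. Each array detected 30 to 40 of the 83 probes that met the symbol rule, and its mean signal was 209 to 591. PTL sample 3 stood apart in basement membrane genes: the median of the members lay 0.536 above their overall means in this sample, against 0.127 and 0.0906 in PTL samples 1 and 2. WT MLN sample 2 was low in several of the same genes. The same median was −0.378 in WT spleen sample 3, against −0.0994 and −0.0711 in WT spleen samples 1 and 2. It was −0.786 in WT thymus sample 2, against −0.409 and −0.279 in WT thymus samples 1 and 3. Both arrays of WT spleen sample 3 had the lowest mean signals of the series, 220 and 209. Every array sample is a whole piece of tissue, so fewer cells of a type and less RNA per cell cannot be told apart.

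Across tissues the thymus was the organ poorest in most of these transcripts. Taking 1 probe for each of the 37 genes, the lowest of the 9 group means was that of WT thymus for 14 genes, GIT2KO thymus for 7 and WT spleen for 7, and the highest was that of PTL for 8, GIT2KO spleen for 6 and WT ILN for 5. In WT thymus against WT spleen, 5 member probes were higher and 15 lower, against 23.7% and 21% of all probes. Biglycan was at 10.35, 9.70 and 10.42 in the WT thymus samples and at 12.50, 12.76 and 12.06 in WT spleen, a difference of −2.28 (SE 0.22, adjusted p = 8.04e-09, limma). The 6 thymus samples of both genotypes lay between 9.70 and 10.80 for this probe, and all other samples were at 11.98 or above.

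Nidogen 1 (Nid1), which bridges laminin and type IV collagen, was at 6.77, 6.53 and 6.44 in WT thymus and at 8.89, 9.03 and 8.86 in WT spleen (−2.35, SE 0.28, adjusted p = 3.07e-07, limma). Col16a1, a collagen that associates with fibril surfaces, was lower by 1.91 on the log2 scale, and Tgfbi, a secreted integrin-binding protein induced by TGF-beta, by 1.63 and 1.37 in its 2 probes. All 6 thymus samples were below every other sample for Nid1, Col16a1 and Tgfbi probe 1, apart from WT MLN sample 2, whose Nid1 value of 7.63 fell just below the 7.68 of GIT2KO thymus sample 2. Of the 8 fibrillar collagen probes, 4 were lower in WT thymus and none higher, and Col1a1 and Col3a1 were detected on no WT thymus array.

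The laminin beta 3 chain gene Lamb3 ran the other way. This chain is part of the laminin that anchors epithelia in skin and was far higher in thymus than in the other organs: 8.81, 8.86 and 8.57 in GIT2KO thymus and 8.90, 8.76 and 9.42 in WT thymus, against 5.14 to 6.50 in the other 21 samples. The difference between WT thymus and WT spleen was 3.18 (SE 0.26, adjusted p = 4.25e-10, limma). Col15a1, a multiplexin of basement membranes, was also higher in WT thymus than in WT spleen (8.04, 7.81 and 8.05 against 6.38, 6.19 and 6.31, difference 1.67, SE 0.32), as were Lum by 1.15 and both Dcn probes by 0.56 and 0.98. Fibulin 1 (Fbln1), a glycoprotein that binds fibronectin and nidogen, had its highest group mean in GIT2KO thymus, at 8.93, 9.24 and 9.29, and was at 8.48, 8.24 and 8.53 in WT thymus, but the WT thymus to spleen difference was not called. Of the 20 calls in this comparison 16 remained without any 1 sample; Lum was lost without WT thymus 1 (adjusted p = 0.0747), Col3a1 without WT spleen 3 (0.0538), Col7a1 without WT spleen 1 or 3 or WT thymus 1 or 3 (highest 0.186), and Lamb2 without WT spleen 1 or 2 or WT thymus 1 or 2 (highest 0.142).

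Among the WT peripheral organs, ILN had the highest decorin signals. WT ILN against WT spleen gave 15 higher and 5 lower member probes, against 13.6% and 11.9% of all probes, and 5 of the 7 interstitial glycoprotein and proteoglycan probes were among those higher. Dcn probe 1 was at 13.70, 13.68 and 13.81 in WT ILN and at 11.13, 11.14 and 11.21 in WT spleen (2.57, SE 0.15, adjusted p = 4.35e-12, limma), and probe 2 differed by 3.78. Both type VI collagen chains, which form the beaded microfibrils around cells, were higher in ILN as well, Col6a1 by 1.58 and Col6a2 by 1.38, with Col15a1 by 1.94 and the laminin gamma 1 gene Lamc1 by 1.24. A few members were higher in spleen. Col7a1, which encodes the anchoring fibril collagen of skin, was at 8.79, 8.00 and 8.88 in WT spleen and at 5.58, 5.43 and 5.27 in WT ILN (−3.13, SE 0.31, adjusted p = 6.39e-08, limma). The other Col7a1 probe was detected on no array. Lamc3, a laminin gamma chain gene, was detected on all 4 WT spleen arrays (6.24, 5.63 and 5.77) and on no array of any other group. It passed the detection filter through WT spleen alone, and its bound was at least 1.37-fold higher there than in WT ILN. Of these 20 calls 16 remained without any 1 sample, and Col16a1, Col17a1 probe 2, Lama1 and Tgfbi probe 1 did not; without WT spleen 3 their adjusted p was 0.119, 0.246, 0.143 and 0.174.

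Both lymph nodes were set against each other next. WT ILN against WT MLN gave 3 higher and 3 lower, against 4.27% and 2.73% of all probes. Lumican, which regulates collagen fibril spacing, was at 6.37, 6.84 and 7.53 in WT ILN and at 8.29, 8.96 and 9.34 in WT MLN (−1.95, SE 0.37, adjusted p = 0.00204, limma), and Col1a1 was lower in ILN by 1.37 and Col14a1 by 0.93, while Nid2 was higher by 1.07, Col17a1 probe 3 by 0.84 (at least 1.48-fold) and Dcn probe 1 by 0.58. Col17a1 probe 3 passed the detection filter only through WT ILN, so the filter favoured its call. Dcn and Lum are neighbours in the genome, and Dcn was higher in ILN and Lum in MLN. The Dcn call was lost without WT ILN 1 or 3 or WT MLN 2 (highest adjusted p = 0.174), and the Nid2 call without any 1 sample other than WT MLN 3 (highest 0.169). Marker sums of stromal cells also moved between these organs: endothelial markers summed, on the linear scale of corrected signal, to 15436 to 16579 in WT ILN, 6261 to 15938 in WT MLN, 8571 to 9862 in WT spleen and 5519 to 5855 in WT thymus. Fibroblastic reticular markers summed to 25970 to 31987 in WT ILN, 36459 to 48563 in WT MLN, 12371 to 17415 in WT spleen and 4779 to 16206 in WT thymus, and the part of cell composition in these differences was not tested.

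**Figure D1:**
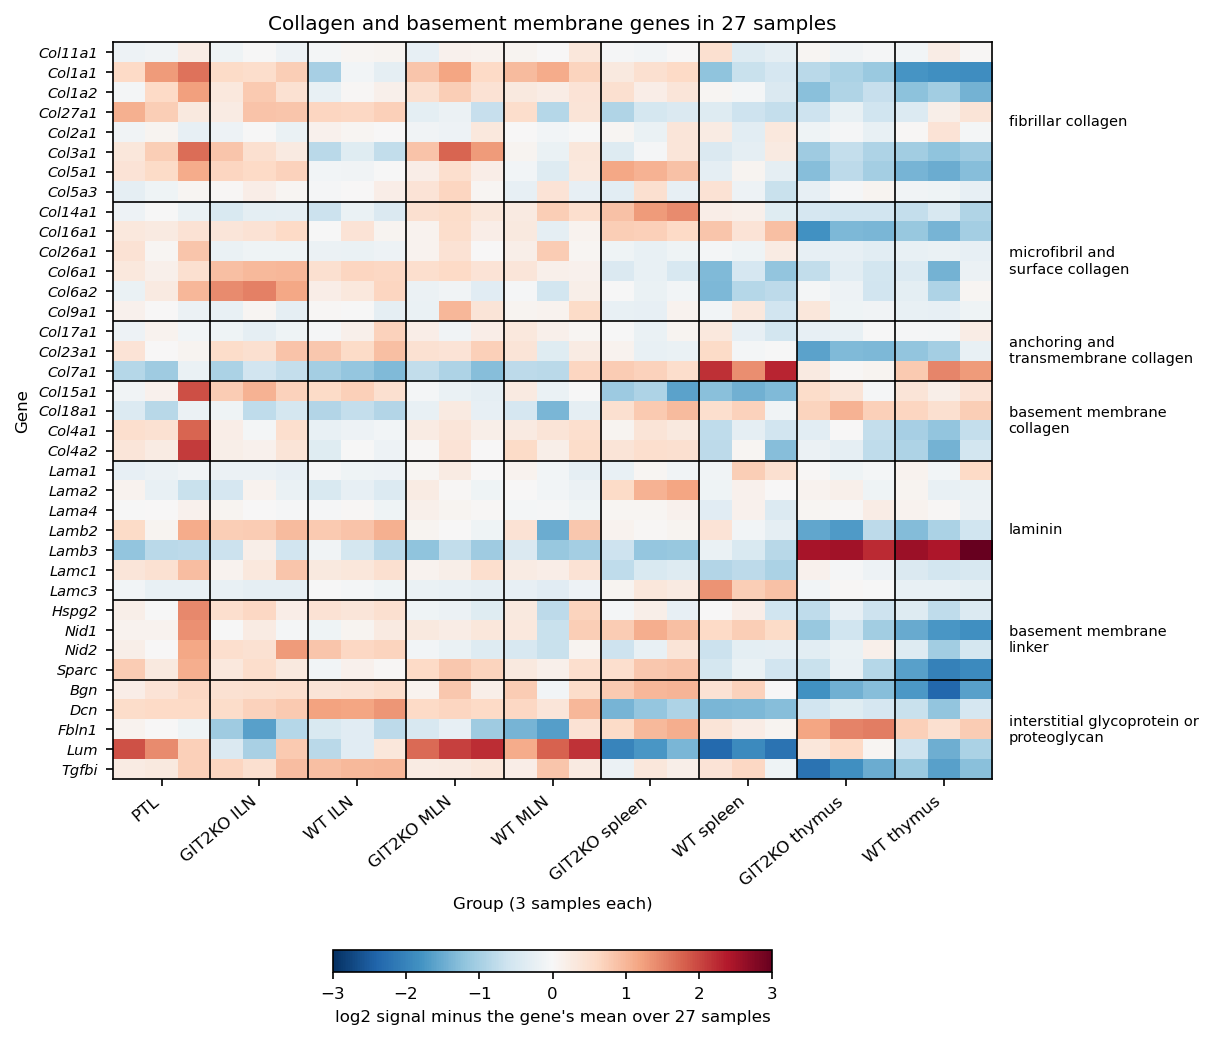
Each row is 1 of the 37 genes, ordered by role, and each column 1 of the 27 samples in groups of 3; colour is the log2 signal minus the gene's own mean over the 27 samples. Among the darkest red cells are Lamb3 in the 6 thymus samples and Col7a1 in WT spleen, and the third PTL column is red across Col15a1, Col4a1, Col4a2, Hspg2 and Nid1.

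In spleen, members of 6 of the 7 roles were higher in GIT2KO than in WT. Of the 44 member probes, 11 (25%) were higher and 3 (6.82%) lower, against a background of 12.8% of all probes higher and 12.3% lower. The median difference of the members was 0.24. Sparc led: probe 1 was at 10.94, 11.24 and 11.30 in GIT2KO spleen and at 9.92, 10.25 and 9.87 in WT spleen (1.15, SE 0.18, adjusted p = 8.70e-05, limma), and probe 2 was at 9.35, 9.86 and 9.88 against 6.96, 8.38 and 6.86 (2.30, SE 0.29). Neither probe overlapped between genotypes, and WT spleen sample 2 was the highest WT sample in both.

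Among fibrillar collagens, Col1a1, which encodes the main chain of type I collagen, was at 7.06, 7.25 and 7.36 in GIT2KO spleen and at 5.55, 6.10 and 6.27 in WT spleen (1.25, SE 0.25, adjusted p = 0.000858, limma). Col5a1, whose product nucleates type I fibrils, was at 9.61, 9.50 and 9.32 against 8.18, 8.53 and 8.18 (1.18, SE 0.18). All GIT2KO samples were above all WT samples for both genes. Col1a2, the partner chain of Col1a1, was at 7.58, 7.31 and 7.47 against 7.17, 7.05 and 6.68 and did not pass the test, nor did Col3a1, whose genotypes overlapped.

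Both type IV collagen genes were called in spleen. Col4a1 was at 9.69, 9.99 and 9.90 in GIT2KO and 8.84, 9.35 and 9.04 in WT (0.78, SE 0.24, adjusted p = 0.0189, limma), and Col4a2 at 9.43, 9.56 and 9.53 against 8.25, 9.11 and 7.77 (1.13, SE 0.34). The laminin alpha 2 gene Lama2 was higher by 0.93 (5.85, 6.33 and 6.47 against 5.16, 5.41 and 5.31). Lama2 was detected on 2 of 4 WT spleen arrays, so its WT values lay near background. Col14a1, a fibril-associated collagen, was higher by 1.19 (7.26, 7.66 and 7.81 against 6.59, 6.54 and 6.04). The basement membrane linkers Nid1 (9.06, 9.38 and 9.19 against 8.89, 9.03 and 8.86) and Hspg2 (9.67, 9.91 and 9.47 against 9.73, 9.92 and 9.14) did not pass. Col6a2 was higher by 0.90, Col6a1 probe 1 by 0.63 and Dcn probe 2 by 1.08. The second Col6a1 probe gave a difference of −0.26 and was not called, so the probes of this gene disagreed in sign. Dcn probe 1, the probe with the higher mean, differed by 0.17 with overlap and was not called.

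The 3 members that were lower in GIT2KO spleen were Col7a1, Lamc3 and Lama1. Col7a1 was at 7.36, 7.29 and 7.13 in GIT2KO and 8.79, 8.00 and 8.88 in WT (−1.30, SE 0.31, adjusted p = 0.00353, limma), with no overlap. Lamc3 was detected on 0 of 3 GIT2KO spleen arrays and on 4 of 4 WT arrays, at least 1.42-fold lower. This probe passed the detection filter only through WT spleen, so the filter itself favoured this call, which adds no support. The Lama1 probe lay at background, detected on 0 of 3 GIT2KO and 2 of 4 WT spleen arrays, with overlapping values (fitted difference −0.46, adjusted p = 0.0483). Without any 1 of the 6 spleen samples, 8 of the 14 calls remained, namely both Sparc probes, Col1a1, Col5a1, Col14a1, Lama2, Col7a1 and, with the limit just given, Lamc3. The Col4a1 call was lost without GIT2KO spleen 2 or 3 or WT spleen 1 or 3 (highest adjusted p = 0.0808), Col4a2 without GIT2KO 2 or WT 1 or 3 (highest 0.131), Col6a2 without GIT2KO 1 or WT 1 (0.0503 and 0.0846), Dcn probe 2 without GIT2KO 3 (0.0612), Lama1 without any 1 sample other than WT spleen 1 (highest 0.237), and Col6a1 without any other than WT spleen 2 (highest 0.171).

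Calls among markers of other cells were mixed in spleen, where 12.8% of all probes were higher and 12.3% lower. Of 10 smooth muscle and pericyte markers tested, 2 were higher and 2 lower, and their summed signal was 7366 to 9689 in GIT2KO against 4555 to 7054 in WT spleen. Red pulp and erythroid markers were higher for 3 of 6 (sums of 53881 to 60093 against 30868 to 56362), with no marker of this list undetected in either group. Mesothelial markers, which would come with the capsule, summed to 659 to 946 against 403 to 745. Adipocyte markers were called in neither direction (0 of 13), with 2 of 13 not detected in GIT2KO and 4 of 13 in WT spleen, and fibroblast markers gave 1 higher and 1 lower of 9 with overlapping sums (1761 to 2058 against 1880 to 2125). Fibroblastic reticular markers gave 1 higher and 3 lower of 12 (median −0.38), with sums of 12332 to 15618 against 12371 to 17415. Endothelial markers gave 1 higher and 0 lower of 14, with overlapping sums (8719 to 10589 against 8571 to 9862). The part of these cells in the spleen result was not tested.

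In thymus the members called were fewer and SPARC was again the clearest. GIT2KO against WT thymus gave 5 higher and 1 lower of 44, against 8.84% and 8.43% of all probes, with a median difference of 0.14. Sparc probe 1 was at 9.78, 10.21 and 9.58 in GIT2KO thymus and 8.81, 8.41 and 8.53 in WT thymus (1.27, SE 0.18, adjusted p = 4.17e-05, limma), and probe 2 at 8.28, 9.12 and 8.17 against 7.13, 6.70 and 7.12 (1.54, SE 0.29, adjusted p = 0.00102). These were the only member calls that remained without any 1 of the 6 samples. Lumican was at 7.52, 7.79 and 7.25 against 6.57, 5.73 and 6.24 (1.34, SE 0.37, adjusted p = 0.0166), a call that was lost without GIT2KO thymus 2 (0.0746) or WT thymus 2 (0.0863).

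Dcn probe 2 was at 9.65, 10.14 and 9.91 in GIT2KO thymus against 9.18, 8.49 and 9.22 in WT (0.94, SE 0.28, adjusted p = 0.0228, limma), while Dcn probe 1 did not pass. Col1a1 was at 5.96, 5.81 and 5.66 in GIT2KO and was not detected on any WT thymus array, at least 1.33-fold higher (adjusted p = 0.0183). Col7a1 was lower, as in spleen, at 6.88, 6.64 and 6.67 against 7.39, 8.07 and 7.89 (−1.05, SE 0.31, adjusted p = 0.0201). The groups did not overlap for any of these members. The Dcn call was lost without GIT2KO thymus 2 or 3 or WT thymus 2 (highest adjusted p = 0.132), the Col1a1 call without GIT2KO 1 or 2 or WT 2 or 3 (highest 0.0697), and the Col7a1 call without GIT2KO 2 or 3 or WT 2 or 3 (highest 0.0899). Leaving out GIT2KO thymus 2 or WT thymus 2 took the count of called members from 6 to 2.

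Of the basement membrane genes in thymus, Nid1 was at 7.16, 7.68 and 7.24 in GIT2KO and 6.77, 6.53 and 6.44 in WT, and Col4a1 at 9.29, 9.62 and 8.89 against 8.62, 8.43 and 8.89. Neither passed the test, and no laminin or basement membrane collagen probe was called. Adipocyte markers moved with the thymus result far more than the matrix did: 11 of 13 were higher in GIT2KO thymus (median difference 2.31), with sums of 20611 to 49847 against 2335 to 10720, and all 13 were detected in both groups. Fibroblast markers were higher for 3 of 9 (median 0.70, sums of 1602 to 2170 against 820 to 1134), and endothelial and thymic epithelial markers were called for 0 of 14 and 0 of 9. Their part in the thymus differences was not tested.

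**Figure D2:**
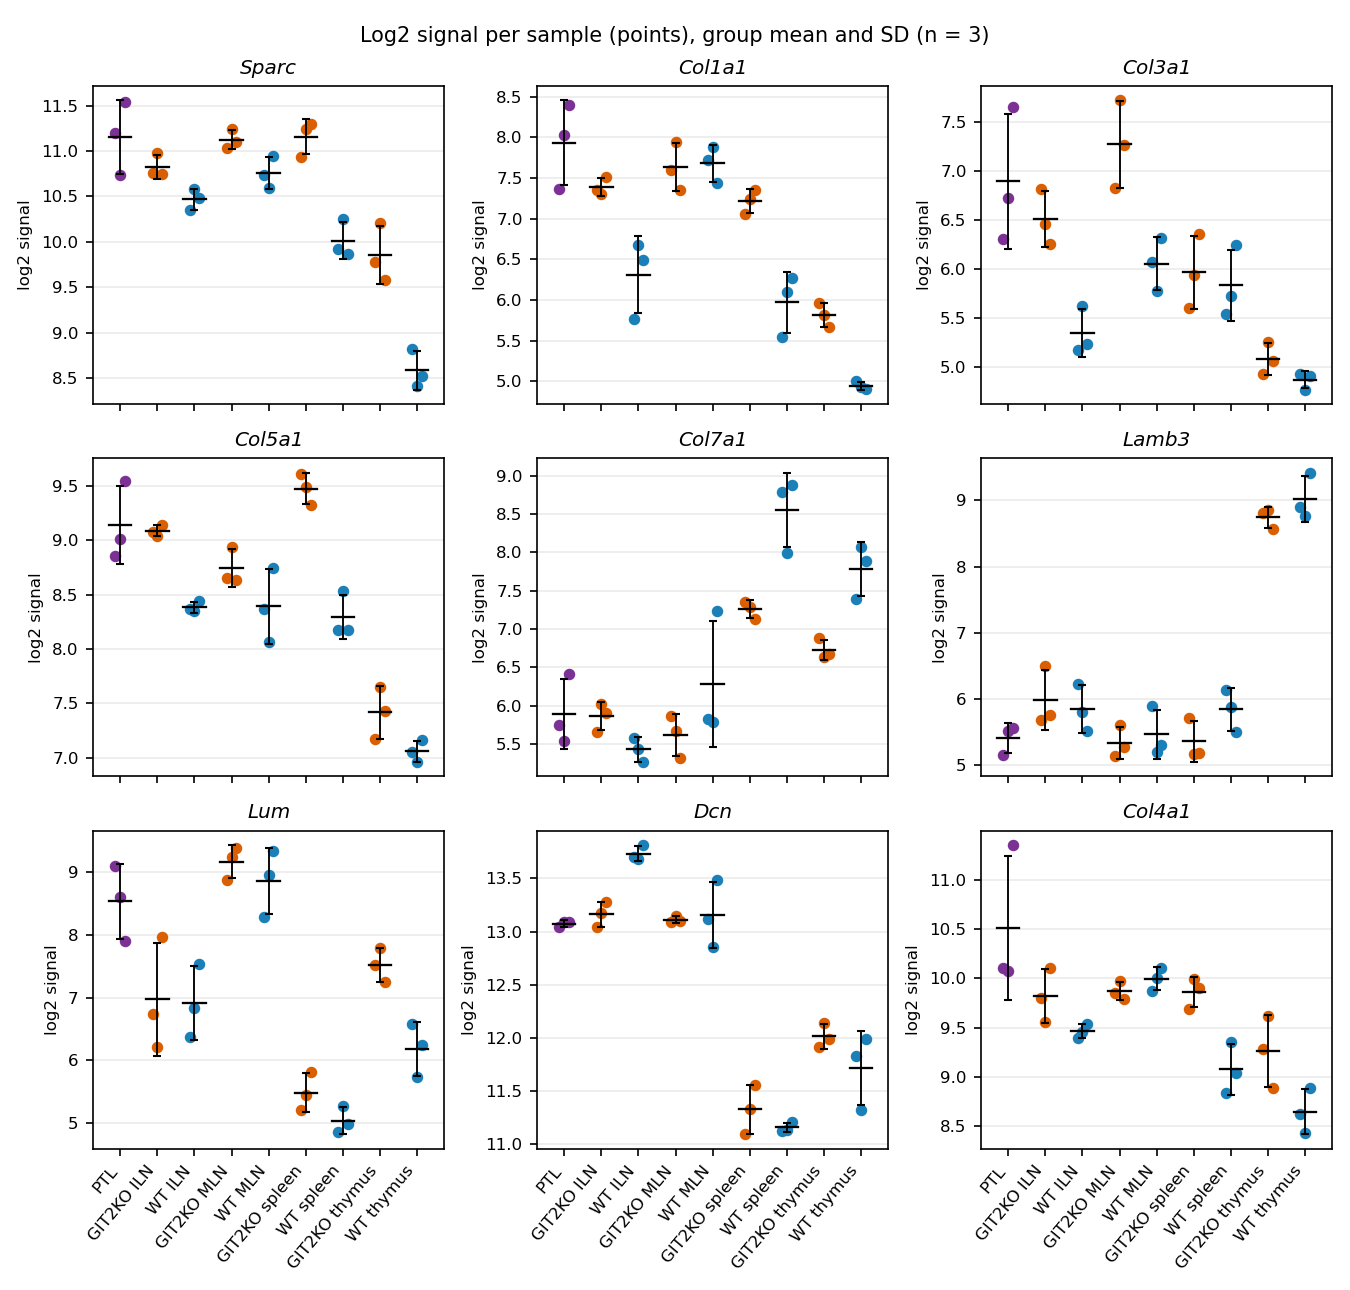
Each panel plots the log2 signal of 1 gene (its probe with the highest mean) in every sample by group, with the group mean and SD (n = 3); purple marks PTL, orange GIT2KO and blue WT. Sparc and Col1a1 are higher in the 3 GIT2KO samples than in the 3 WT samples of ILN, spleen and thymus, Col7a1 is lower in GIT2KO spleen and thymus, and Lamb3 is at 8.57 or above in the 6 thymus samples and at 6.50 or below elsewhere.

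In the lymph nodes the members called higher in GIT2KO were fibrillar collagens. GIT2KO against WT ILN gave 3 higher and 2 lower members, against 0.804% and 1.65% of all probes, and the 3 higher were all fibrillar. Col3a1, the type III collagen gene of reticular fibres, was at 6.82, 6.46 and 6.26 in GIT2KO ILN and 5.18, 5.63 and 5.23 in WT ILN (1.17, SE 0.28, adjusted p = 0.0230, limma). It was detected on 1 of 3 WT ILN arrays, so its WT values lay near background. Col1a1 was at 7.35, 7.30 and 7.51 against 5.77, 6.68 and 6.49 (1.08, SE 0.25, adjusted p = 0.0158), and Col5a1 at 9.08, 9.04 and 9.14 against 8.37, 8.35 and 8.44 (0.70, SE 0.18, adjusted p = 0.0334). None of the 3 genes overlapped between genotypes. By median difference the fibrillar probes (0.28) did not stand above basement membrane collagens (0.34) or microfibril and surface collagens (0.30). The medians were 0.05 for laminins, 0.03 for basement membrane linkers, −0.44 for anchoring and transmembrane collagens and −0.46 for interstitial members. Col6a2 was at 7.90, 8.01 and 7.64 against 6.69, 6.81 and 7.13, without overlap, and was not called.

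Dcn probe 1 was lower in GIT2KO ILN, at 13.04, 13.18 and 13.28 against 13.70, 13.68 and 13.81 (−0.57, SE 0.15, adjusted p = 0.0368, limma). Col17a1 probe 3, a probe of the hemidesmosome collagen gene, was not detected in GIT2KO ILN. It was at 6.15, 5.75 and 6.05 in WT, so it was at least 1.52-fold lower in GIT2KO (adjusted p = 0.000887, limma). Col17a1 probes 1 and 2 were detected on 3 and 2 of the 4 GIT2KO ILN arrays. Their means were also lower in GIT2KO than in WT ILN, but neither was called. Probe 3 passed the detection filter only through WT ILN, so the filter favoured its call. The call for Col17a1 probe 3 was the only one of the 5 that remained without any 1 sample. The Col5a1 and Dcn calls were lost whichever of the 6 samples was left out (highest adjusted p = 0.128 and 0.167), Col1a1 without GIT2KO ILN 1 or 3 or WT ILN 1 (highest 0.172), and Col3a1 without GIT2KO 1 or 2 or WT 1 or 3 (highest 0.131). Fibroblast, reticular, endothelial, smooth muscle and adipocyte markers were called for none of 9, 12, 14, 10 and 13 in this comparison, with fibroblast sums of 2254 to 3239 in GIT2KO and 2405 to 2676 in WT ILN. The adipocyte markers nevertheless had a median difference of 0.97, and their sums of 9795 to 19236 in GIT2KO and 6932 to 9088 in WT ILN did not overlap. Their part in the ILN differences was not tested.

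In MLN a single member was called, against 0.772% of all probes higher and 1.39% lower, and 4 members had an unadjusted p under 0.05 (limma). It was again Col3a1, at 6.83, 7.72 and 7.27 in GIT2KO and 6.07, 5.77 and 6.31 in WT MLN (1.22, SE 0.28, adjusted p = 0.0174, limma), with no overlap, and it was lost without GIT2KO MLN 2 (0.141) or 3 (0.0674) or WT MLN 1 (0.0607) or 2 (0.05). Col1a1 was at 7.60, 7.94 and 7.35 in GIT2KO and 7.72, 7.88 and 7.44 in WT MLN, and the genotypes overlapped in this tissue alone for Col1a1. WT MLN sample 2 was the lowest MLN sample for Hspg2 (8.95), Lamb2 (6.31) and Nid1 (7.63), and the endothelial marker sum of WT MLN ran from 6261 to 15938.

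Probe by probe, 0 of 44 members were called in opposite directions in different tissues. Over all probes the share was 0.36%, so this count does not set the members apart. Dcn was called higher by probe 2 in thymus and spleen and lower by probe 1 in ILN. Of the 44 probes, 18 (40.9%) were called in at least 1 of the 4 tissues, against 36.7% of all probes, and 7 (15.9%) in 2 or more, against 8.48%. The GIT2KO mean was above the WT mean in all 4 tissues for 12 probes (27.3%, against 15.6% of all probes) and below it in all 4 for 3 (6.82%, against 16.5%). Col1a1 was called in 3 tissues, thymus, ILN and spleen. A moderated F test over the 4 genotype differences asked whether they were unequal, and it called 8 of 44 member probes, against 8.24% of all probes. They were both probes of Sparc and of Dcn, Lamc3, Col17a1 probe 3, Col7a1 and Col14a1. Lamc3 passed the detection filter only through WT spleen and Col17a1 probe 3 only through WT ILN. The filter thus favoured their calls, which the count of 8 includes. For Sparc probe 1 the differences were 1.27 in thymus, 0.36 in ILN, 0.37 in MLN and 1.15 in spleen (adjusted p = 0.023), and for Col14a1 they were 0.15, 0.10, −0.04 and 1.19 (adjusted p = 0.0124). Dcn probe 2 was higher in thymus (0.94) and spleen (1.08) and had a difference of −0.63 in ILN (adjusted p = 0.0199). The Col3a1 and Col1a1 differences were not among the 8. Without WT ILN sample 3, 5 members were called by this test.

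**Figure D3:**
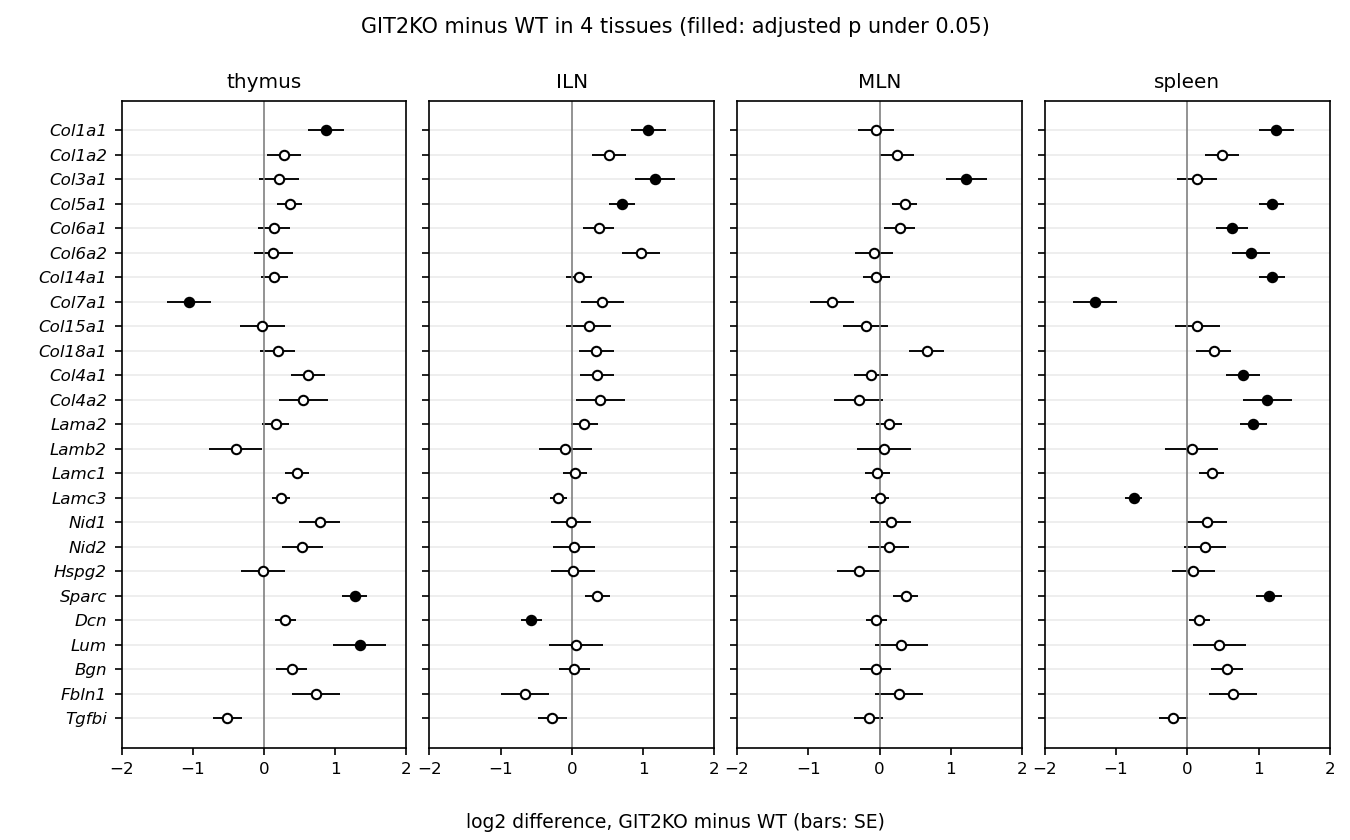
Each panel gives the difference in log2 signal, GIT2KO minus WT, in 1 tissue for 25 genes, with the standard error as bars; filled points passed an adjusted p of 0.05. Spleen holds the most filled points, Col1a1 is filled in thymus, ILN and spleen, and MLN has only Col3a1.

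The lobes were next compared with the 4 GIT2KO tissues. Against GIT2KO thymus, PTL had 24 of 44 member probes higher and 5 lower, against 19% and 21.3% of all probes, and the median difference of the members was 0.78 while that of all probes was −0.02. Of 8 fibrillar collagen probes 5 were higher, of 5 basement membrane linker probes 4, and of 7 interstitial glycoprotein and proteoglycan probes 6. Tgfbi probe 1 was at 11.61, 11.66 and 12.07 in PTL and 9.16, 9.53 and 9.89 in GIT2KO thymus (2.26, SE 0.21, adjusted p = 3.95e-09, limma), and its probe 2 differed by 2.28. Col1a1 was at 7.37, 8.04 and 8.40 against 5.96, 5.81 and 5.66 (2.12, SE 0.25), Lamb2 at 8.35, 7.86 and 8.90 against 6.22, 6.09 and 7.0 (1.93, SE 0.37), and Bgn at 12.27, 12.47 and 12.68 against 10.24, 10.62 and 10.80 (1.92, SE 0.22). PTL lay above GIT2KO thymus in every sample for these genes.

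Col3a1 was not detected in GIT2KO thymus and was at 6.31, 6.72 and 7.66 in PTL, at least 2.94-fold higher (adjusted p = 1.34e-05, limma). The lower members were Lamb3 (5.15, 5.52 and 5.56 against 8.81, 8.86 and 8.57, difference −3.33, SE 0.26, adjusted p = 2.18e-10), Fbln1 (7.86, 7.76 and 7.63 against 8.93, 9.24 and 9.29, −1.40, SE 0.34), both probes of Col18a1, the other multiplexin collagen gene, and Col7a1 (−0.84). Col18a1 probe 1 differed by −1.29, and probe 2 had only a bound, at least 1.23-fold lower in PTL. Of the 29 calls, 24 remained without any 1 sample. The 5 that did not were Lum, lost without PTL 1 or 2 or GIT2KO thymus 1 or 3 (highest adjusted p = 0.160), Hspg2 and Lamc1, lost without PTL 3 (0.0882 and 0.0651), Col18a1 probe 2, lost without PTL 1 or GIT2KO thymus 2 (0.0622 and 0.0890), and Col7a1, lost without any 1 sample other than PTL 3 (highest 0.138). With the animal as a block, Col4a2 fell to 0.68 (adjusted p = 0.0892) and Hspg2 to 0.54 (0.139). Cell markers moved widely in this comparison: 12 of 14 endothelial and 9 of 12 reticular markers were higher in PTL, with endothelial sums of 10208 to 20820 against 4851 to 6167, whereas no adipocyte marker of 13 was called (sums of 13595 to 54695 and 20611 to 49847). The part of these cells in the member differences was not tested.

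Basement membrane genes were uneven among the lobes. Sample 3, from a mouse that gave no other GIT2KO sample, was highest in Col4a1 (10.11, 10.07 and 11.35 in samples 1, 2 and 3), Col4a2 (9.41, 9.29 and 11.15), Hspg2 (9.92, 9.72 and 11.16), Nid1 (8.39, 8.39 and 9.65) and Col15a1 (7.54, 7.78 and 9.57). Within groups over the 27 samples, the highest Pearson r were 0.90 for Nid1 and Hspg2, 0.85 for Col4a1 and Col4a2, and 0.82 for Col5a1 and Hspg2. They were picked as the highest of 666 gene pairs, whose median was 0.16. PTL sample 3 lay well above its group means of 8.81 for Nid1 and 10.26 for Hspg2. WT MLN sample 2 (7.63 and 8.95) lay well below its group means of 8.42 and 9.80. These correlations describe samples that share mice and arrays, and no test was made. For Col1a1 and Col1a2, whose chains join in the same molecule, the within-group r was 0.37, and 0.88 over the samples without regard to group. Endothelial markers summed to 10208 to 20820 over the lobes.

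Against the lymph nodes fewer members of the lobes were called than against thymus or spleen. Relative to all probes the share was lower against MLN (2.27% against 5.47%) and higher against ILN (11.4% against 4.22%). Against GIT2KO MLN, 1 of 44 probes was higher and 0 lower, against 3.01% and 2.46% of all probes, and 10 probes had an unadjusted p under 0.05. The called gene was Col27a1, a fibrillar collagen gene, at 6.89, 6.58 and 6.13 in PTL and 5.53, 5.66 and 5.15 in GIT2KO MLN (1.09, SE 0.28, adjusted p = 0.0246, limma), and it was lost without PTL 1 (0.0844) or 2 (0.0523) or GIT2KO MLN 1 (0.0643) or 3 (0.132). Against GIT2KO ILN, 3 were higher and 2 lower, against 2.35% and 1.87% of all probes. These were Lum (9.11, 8.60 and 7.91 against 6.74, 6.21 and 7.97, 1.57, SE 0.37, with overlap), Fbln1 (7.86, 7.76 and 7.63 against 6.69, 6.13 and 6.91, 1.18, SE 0.34) and Col26a1, and, lower in PTL, Col6a2 (6.30, 6.77 and 7.49 against 7.90, 8.01 and 7.64, −1.0, SE 0.27) and Col6a1 probe 2 (−0.78, SE 0.22). Col26a1 was detected on 2 of 3 PTL arrays and on no GIT2KO ILN array, and no fold is given for it. Each of the 5 calls against ILN was lost on leaving out at least 1 sample, and the adjusted p then reached 0.119 for Lum, 0.211 for Fbln1, 0.217 for Col26a1, 0.174 for Col6a2 and 0.159 for Col6a1. With the animal as a block, Fbln1 and Col26a1 were not called against ILN (adjusted p = 0.0835 and 0.286). Adipocyte markers were higher in PTL than in either node for 4 of 13, with sums of 9795 to 19236 in GIT2KO ILN and 17390 to 18573 in GIT2KO MLN, and their part was not tested.

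Against GIT2KO spleen, PTL had 11 members higher and 6 lower, against 9.06% and 9.82% of all probes. Lumican was at 9.11, 8.60 and 7.91 in PTL and 5.19, 5.44 and 5.80 in GIT2KO spleen (3.06, SE 0.37, adjusted p = 1.40e-06, limma). Dcn probe 1 was at 13.04, 13.09 and 13.09 against 11.10, 11.33 and 11.56 (1.75, SE 0.15), and Col15a1 at 7.54, 7.78 and 9.57 against 6.54, 6.72 and 6.04 (1.87, SE 0.32). All of these were without overlap. The lower members with the largest differences were Col7a1 (−1.36), Col14a1 (6.23, 6.37 and 6.19 against 7.26, 7.66 and 7.81, −1.31, SE 0.19), Col18a1 (−1.21) and Lama2 (−1.19). Sparc was at 11.19, 10.73 and 11.54 in PTL and 10.94, 11.24 and 11.30 in GIT2KO spleen and was not called. Of the 17 calls 11 remained without any 1 sample. Lamc3 was among the 17 but was detected in neither group. Without PTL 3, Col1a1, Col3a1, Lamc3, Col26a1 and Col6a1 probe 1 were lost (adjusted p = 0.222, 0.166, 0.0622, 0.0987 and 0.0898), each was also lost without at least 1 GIT2KO spleen sample, and Col18a1 probe 2 was lost without PTL 1 or GIT2KO spleen 3 (0.0639 and 0.0658). With the animal as a block the same 5 were not called (adjusted p of 0.0754 to 0.223). Fibroblastic reticular markers were higher in PTL for 9 of 12 (median 1.80, sums of 37271 to 50874 against 12332 to 15618), adipocyte markers for 7 of 13 (median 1.77, sums of 13595 to 54695 against 6169 to 9922) and lymph node vessel markers for 5 of 7. Red pulp and erythroid markers were lower in PTL for 5 of 6 and smooth muscle markers for 6 of 10, and the part of all these cells was not tested.

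**Figure D4:**
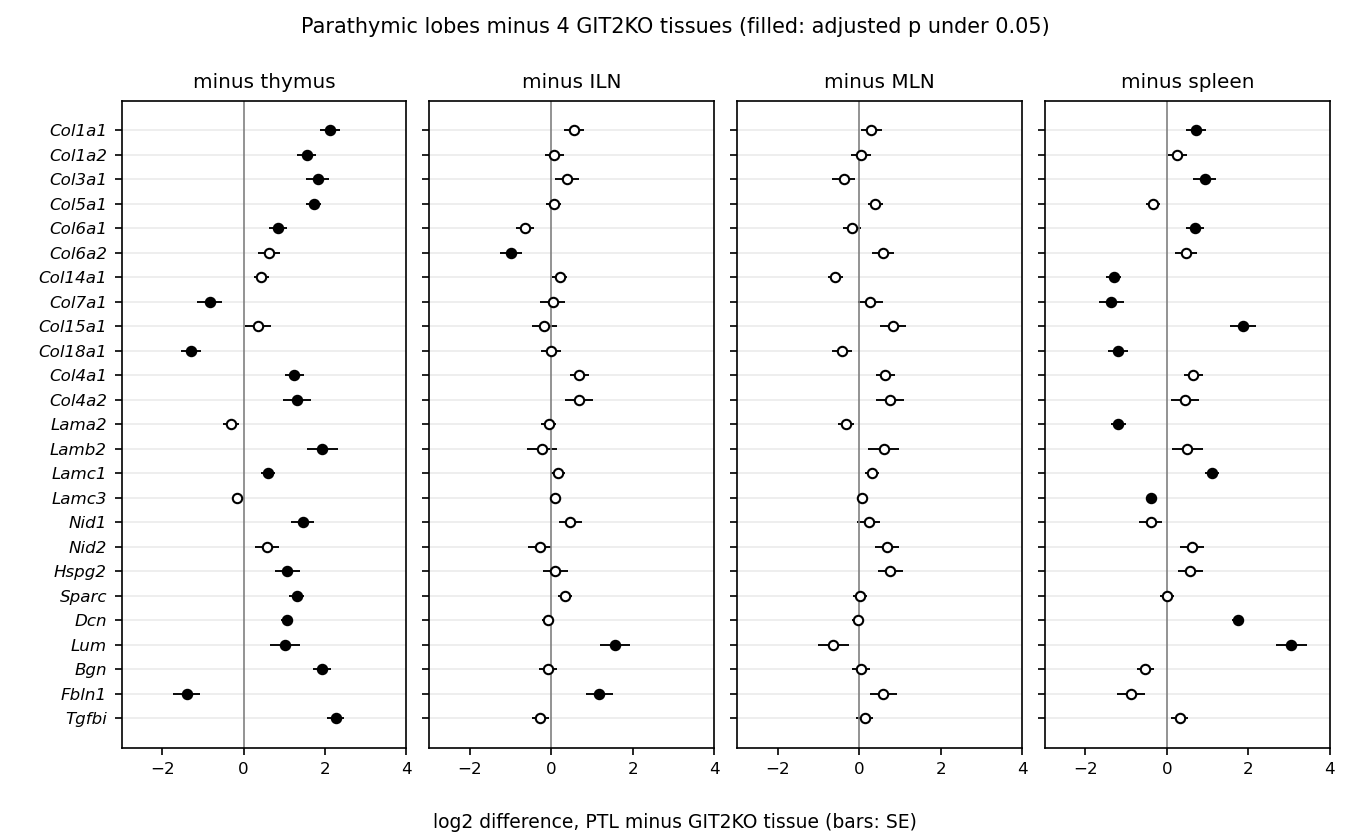
Each panel gives the difference in log2 signal, PTL minus 1 GIT2KO tissue, for 25 genes with the standard error as bars; filled points passed an adjusted p of 0.05. Filled points crowd the thymus panel, and the MLN panel has none, since Col27a1, the 1 gene called there, is not among those drawn.

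The genes that make, cut and sense the matrix were counted from lists, with up to 3 genes named for each. The counts below stand against all-probe shares, higher and lower in GIT2KO, of 8.84% and 8.43% in thymus, 0.804% and 1.65% in ILN, 0.772% and 1.39% in MLN and 12.8% and 12.3% in spleen. Of 19 tested collagen processing genes, 5 were higher and 1 lower in GIT2KO than in WT thymus, 2 and 0 in ILN, 1 and 0 in MLN and 4 and 1 in spleen. Serpinh1, the chaperone that folds procollagen in the endoplasmic reticulum, was called in all 4 tissues. It was at 7.29, 7.64 and 7.34 in GIT2KO thymus against 5.80, 5.48 and 5.76 in WT (1.74, adjusted p = 9.43e-06, limma), at 8.13, 8.21 and 8.24 against 6.28, 6.17 and 6.66 in ILN (1.82, 7.10e-06), at 8.40, 8.35 and 8.39 against 6.36, 6.59 and 7.16 in MLN (1.68, 2.71e-05) and at 7.98, 7.70 and 8.03 against 6.22, 6.83 and 6.12 in spleen (1.51, 3.96e-05), each with an SE of 0.22. GIT2KO samples were above WT samples in each tissue without overlap, and the test for a difference among tissues gave an adjusted p of 0.872.

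Pcolce, which enhances cleavage of the procollagen C-propeptide, was higher by 1.15 in thymus, 1.01 in ILN (adjusted p = 0.0372, limma) and 1.01 in spleen, with a difference of 0.47 in MLN that did not pass. Loxl1, a cross-linking oxidase of elastic fibres, was higher by 1.26 in thymus. Serpinh1, Pcolce, Loxl1 and Ddr1 were picked for the plot after their values had been seen. PTL was at 8.56, 8.06 and 8.73 in Serpinh1, with differences of 0.26 from ILN and 0.07 from MLN that did not pass, and was higher than GIT2KO thymus by 1.03.

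Of 20 tested matrix receptor genes, 0 were higher and 2 lower in GIT2KO thymus, 0 and 1 in ILN, 0 and 1 in MLN, and 3 and 3 in spleen. Ddr1, a receptor tyrosine kinase that binds collagen, was lower in all 4 tissues without overlap. It was at 7.61, 7.74 and 7.75 in GIT2KO thymus against 9.18, 9.21 and 9.88 in WT (−1.72, SE 0.21, adjusted p = 9.54e-06, limma), and lower by 1.25 on the log2 scale in ILN, 1.29 in MLN and 1.34 in spleen (highest adjusted p = 0.000819). The difference among tissues gave an adjusted p of 0.613. In spleen the collagen-binding integrin gene Itga1 was higher by 1.21 and Itga9 by 1.59.

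Of 15 tested proteases and their inhibitors, 1 was lower in ILN (Mmp11, −1.30) and 2 were higher in spleen (Mmp9 by 1.35 and Mmp2 by 0.56), and none was called in thymus or MLN. Of 17 TGF-beta pathway genes, 1 was higher in thymus (Tgfbr2, 0.68), 1 in MLN (Ltbp1, 1.22) and, in spleen, Thbs1 was higher by 1.14 while Skil and Smad3 were lower by 1.05 and 0.91 on the log2 scale. Of 19 other matrix protein genes, Ogn (2.10), Prelp (1.15) and Mfap5 (0.77) were higher in GIT2KO thymus, Fmod was lower in ILN (−1.18) and Mfap4 higher in spleen (0.98). Of the 15 proteases and inhibitors, 0 were higher and 3 lower in PTL than in GIT2KO ILN. These were Mmp3 (−3.21), a stromelysin, Mmp12 (−1.28) and Timp2 (−0.61). In PTL 8 were higher and 1 lower than in GIT2KO thymus, 0 were called against MLN, and 2 were higher and 4 lower against spleen. All-probe shares, higher and lower, were 2.35% and 1.87% against ILN and 19% and 21.3% against thymus. They were 3.01% and 2.46% against MLN and 9.06% and 9.82% against spleen.

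**Figure D5:**
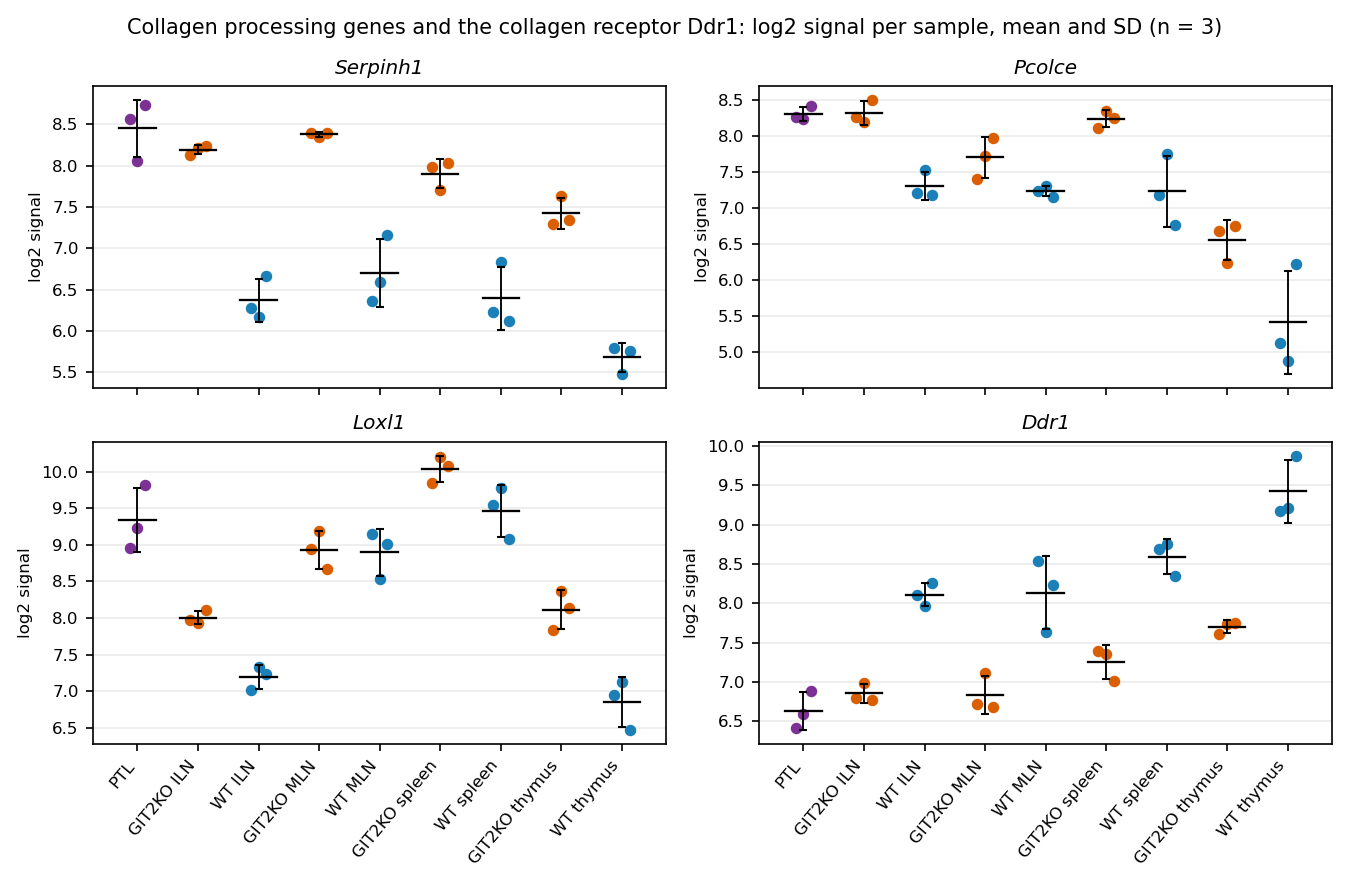
Log2 signal of Serpinh1, Pcolce, Loxl1 and Ddr1 in every sample by group, with the group mean and SD (n = 3); purple marks PTL, orange GIT2KO and blue WT. In each of the 4 tissues the 3 GIT2KO samples lie above the 3 WT samples for Serpinh1 and below them for Ddr1.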

How the data were processed

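Total RNA was hybridised to Illumina MouseRef-8 bead arrays. The authors deposited intensity values per probe that were not normalized, with a detection p-value for each (GenomeStudio 2011.1, per the labels' processing notes), and a second deposited table of scores, which are log10 signals z-transformed within each array. Here neqc (limma 3.58.1, R 4.3.3, offset 16) corrected the background and quantile-normalized the 31 arrays. The 4 repeat arrays were averaged with their samples. Probes detected at 0.05 or better on 3 or more arrays were fitted in 1 model over the 9 groups (lmFit, eBayes with trend), and p-values were adjusted over all 15291 of them. The fit was tested on simulated data. Of the array's probes 1719 have no symbol in the annotation and none was named from them. The members and gene lists were chosen with earlier results of these data known. Named with values are up to 4 members per direction in each comparison, with the largest called differences, and a fixed set of principal chains; other genes are named up to 3 per list. A gene is shown by its probe with the highest mean. An "at least" fold sets a group's mean against a group detected on no array, taking for each such array the higher of the probe's signal and the lowest signal of any detected probe. PTL and GIT2KO tissues share 2 mice and the WT tissues 3, so those numbers pair samples. For pairs from the same mouse the correlations of deviations were −0.195 to 0.197. The alternatives covered background, scores, filters, repeat arrays, variance, animal or replicate as a block, the groups fitted, each left-out sample and the methods' t-test. Promoter windows come from RefSeq (GRCm38.p6).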

Additional observations from a re-analysis of the deposited data

Results flagged for a closer look

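For 8 of the 44 member probes the GIT2KO minus WT difference was not the same in thymus, ILN, MLN and spleen, by the moderated F test over the 4 genotype differences (limma, adjusted over 15291 probes, of which 8.24% were called). Lamc3 had the lowest adjusted p (0.00562), with a difference of −0.75 in spleen and −0.19 to 0.24 in the other tissues, where it was not detected. It passed the detection filter only through WT spleen, so the filter favoured a difference confined to spleen. Sparc probe 2 (adjusted p = 0.00749) and probe 1 (0.023) differed by 2.30 and 1.15 in spleen and 1.54 and 1.27 in thymus, against 0.18 to 0.59 in the nodes. Col17a1 probe 3 (0.0109) was called lower in ILN alone (fitted difference −0.99), the tissue in which WT samples were the ones detected. It passed the filter only through WT ILN, so the same limit holds, and the count of 8 includes both probes. Col14a1 (0.0124) differed by 1.19 in spleen and by −0.04 to 0.15 elsewhere. Dcn probe 2 (0.0199) and probe 1 (0.0339) differed by −0.63 and −0.57 in ILN and by 1.08 and 0.17 in spleen. Col7a1 (0.0406) differed by −1.05 in thymus, −0.66 in MLN and −1.30 in spleen, and by 0.43 in ILN.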

How the results depend on the processing

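No member call changed sign under any alternative. Over the 9 settings other than the methods' t-test and the left-out samples, 5 of 6 genotype calls remained in thymus, 2 of 5 in ILN, 0 of 1 in MLN and 9 of 14 in spleen; 25 of 29 PTL calls remained against thymus, 0 of 5 against ILN, 0 of 1 against MLN and 12 of 17 against spleen; and 15 of 20, 15 of 20 and 0 of 6 remained for WT ILN and WT thymus against WT spleen and for WT ILN against WT MLN. Fitted on only the compared groups, called members numbered 12 in ILN, 0 in MLN and 9 in spleen by genotype, 0 for PTL against ILN and against MLN, and 0 for WT ILN against WT MLN. With no detection filter, PTL against ILN gave 2. The methods' t-test without adjustment called 10, 17 and 4 members by genotype in thymus, ILN and MLN, 3 and 3 for PTL against ILN and MLN, and 15 for WT ILN against WT MLN. After Benjamini-Hochberg it called 1, 1, 0 and 0 in thymus, ILN, MLN and spleen, 17, 0, 0 and 3 for PTL against thymus, ILN, MLN and spleen, and 8, 12 and 0 for the WT tissue pairs. Leaving out 1 sample at a time gave 2 to 7 called members in thymus, 1 to 3 in ILN, 0 to 2 in MLN, 10 to 16 in spleen, 27 to 28, 0 to 4, 0 to 1 and 13 to 16 for PTL against thymus, ILN, MLN and spleen, 16 to 21, 18 to 21 and 4 to 9 for the WT pairs, and 5 to 11 for the difference among tissues. The count moved by over 1.5 times without GIT2KO or WT thymus 2 (each 2), any 1 ILN sample by genotype (1 to 3), GIT2KO MLN 2 or 3 or WT MLN 1 or 2 (each 0) or WT MLN 3 (2), and, for PTL, without PTL 1 or 2 or any 1 GIT2KO ILN sample against ILN (0 to 3) and without GIT2KO MLN 1 or 3 against MLN (0). The deposited scores moved the share of higher calls over all probes from 35.6% to 50% in MLN, 50.9% to 61.8% in spleen, 55% to 38.6% for PTL against MLN and 53.3% to 64.2% for WT ILN against WT spleen. GIT2KO and WT animals share only a replicate number (correlations of −0.12 to 0.26), and the replicate block moved no count of called members by over 1.5 times; of the genotype calls it ended only Lama1 in spleen (adjusted p = 0.0542). For comparisons within a genotype the block was the animal, not the replicate number. Over all probes the animal block moved the calls for PTL against MLN from 836 to 471 and for WT ILN against WT MLN from 1070 to 1705. Fits on only the compared groups moved them from 375 to 1295, 331 to 97 and 3841 to 1153 by genotype in ILN, MLN and spleen, from 645 to 61 and 836 to 387 for PTL against ILN and MLN, and from 3887 to 2512 and 1070 to 168 for WT ILN against WT spleen and WT MLN. A slide block was not run because the headers name no slides. With 3 samples a group the number of arrays limits the precision, and probes near background have only a bound.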
